A study of Sus scrofa with 48 samples.

Results

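The paraoxonases *PON1*, *PON2* and *PON3* were followed in the subcutaneous adipose tissue (SCAT) of growing pigs through every array probe that carries 1 of these names, either in the gene name of the array or through the gene of its accession. The array names gave 3 probes to *PON1*, 4 to *PON2* and 3 to *PON3*, so 10 of 60305 probes in all. The 3 genes were selected on their measured difference between lines, a high level in low RFI pigs, and because probes of 1 gene disagreed in it. The differences between lines given here are therefore those that chose the genes and stand as a description with no test, whereas diet and its interaction with line were tested.

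Paraoxonases are calcium-dependent hydrolases that open lactone rings and, in the case of *PON1*, also split some organophosphates. *PON1* and *PON3* are made mainly in liver and circulate bound to high-density lipoprotein (HDL), where they are known for limiting the build-up of lipid peroxides, and *PON2* is a membrane-bound enzyme of most tissues that is known for lowering oxidative stress inside cells. The genes lie side by side on 1 chromosome, and adipose tissue exchanges cholesterol with the HDL particles that carry these enzymes.

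The 48 pigs, all Large White barrows of about 132 days, belonged to lines bred apart on residual feed intake (RFI). This index is the feed eaten beyond that predicted from performance, so that low RFI pigs are the efficient ones. Within each line pigs had free access either to a diet with much fat and fiber (HF) or to a diet low in both and rich in starch (LF), which formed 4 groups of 12 pigs: HF_RFIneg and LF_RFIneg of the low RFI line, HF_RFIpl and LF_RFIpl of the high RFI line. Each pig gave 1 RNA sample and 1 single-dye array. The lines are selected herds that differ across the genome and not at a known locus, and the tissue was taken whole.

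Levels are the log2 of the background-subtracted signal minus the median of the array over 44356 kept probes, so that 0 stands for the median kept probe. Between 62.18 and 81.87% of the probes were well above background on an array. The 6 slides and the 2 scan dates each held all 4 groups in equal numbers. Of the 10 adipocyte markers looked up, 9 were measured, including *ADIPOQ*, *PLIN1* and *FABP4*, and their mean level lay between 6.63 and 7.43 over the 48 pigs. Of the 11 liver markers 5 were measured, and their mean level ranged from -2.66 to 4.02. In whole tissue, fewer cells of a type and less RNA per cell cannot be told apart.

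All 10 paraoxonase probes were well above background on 12 of 12 arrays of every group, so that none was lost to the filter, which asked for 9 of 12 arrays in at least 1 group. On the other side of that filter, a probe that the array only describes as paraoxonase-like, A_72_P020806, was well above background on 0 of 48 arrays.

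What each probe can say about a gene depends on its sequence and its accession, so the sequences of the probes at the centre of the disagreement are printed here, 5′ to 3′ as the array files give them, with those of 2 *PON2* probes for comparison. No base is marked by capitals.
PON1 probe A_72_P035606: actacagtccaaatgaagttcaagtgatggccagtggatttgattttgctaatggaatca
PON1 probe O12638: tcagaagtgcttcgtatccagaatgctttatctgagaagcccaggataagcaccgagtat
PON1 probe A_72_P385478: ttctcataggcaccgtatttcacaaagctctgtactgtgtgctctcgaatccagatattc
PON2 probe A_72_P538923: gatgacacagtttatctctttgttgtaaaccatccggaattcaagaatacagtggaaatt
PON2 probe A_72_P107711: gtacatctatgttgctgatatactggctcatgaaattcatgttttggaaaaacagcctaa

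Only A_72_P035606 among the probes named *PON1* carried the accession of the pig *PON1* transcript, and it starts at base 704 of it. A_72_P385478 was named *PON1* on the array, but its accession belongs to *PON3* in the reference gene table. O12638 carried only the accession of the human PON1 protein and no pig transcript, and the *PON2* probe O9320 that of a human *PON2* transcript. Which pig transcript the last 2 probes detect was not settled here, since no transcript sequence was at hand. A_72_P182996, named *PON3*, and A_72_P006641, named *PON2*, carried accessions without a gene in the reference gene table. Their gene is therefore that of the array name alone. The 3 probes named *PON3* (A_72_P182996, A_72_P223547 and A_72_P504977) start between bases 1295 and 1762 of their transcripts. The *PON2* probe A_72_P006641 and the *PON2* probe O9320 share a run of 57 bases, so that they are no separate measurements, while the longest run shared by any other of the 45 pairs was 8 bases. The array annotation gives no genome position for any of them.

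The probes fell into 3 patterns over the groups. The 3 *PON3* probes and the probes A_72_P385478 and O12638 were higher in low RFI pigs on both diets, by between 1.18 and 1.31 on the log2 scale (2.27-fold to 2.49-fold). The *PON1* probe A_72_P035606 had the opposite direction, lower in low RFI pigs by 2.41-fold. The 4 *PON2* probes were lower in low RFI pigs by between 1.17-fold and 1.26-fold. Over all kept probes, 0.809% were called higher in low RFI pigs and 0.557% lower by the thresholds used here (raw p under 0.01, fold change over 1.1, Benjamini-Hochberg adjusted p under 0.08), from which nothing is read for these genes, since this contrast chose them.

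**Figure D1:**
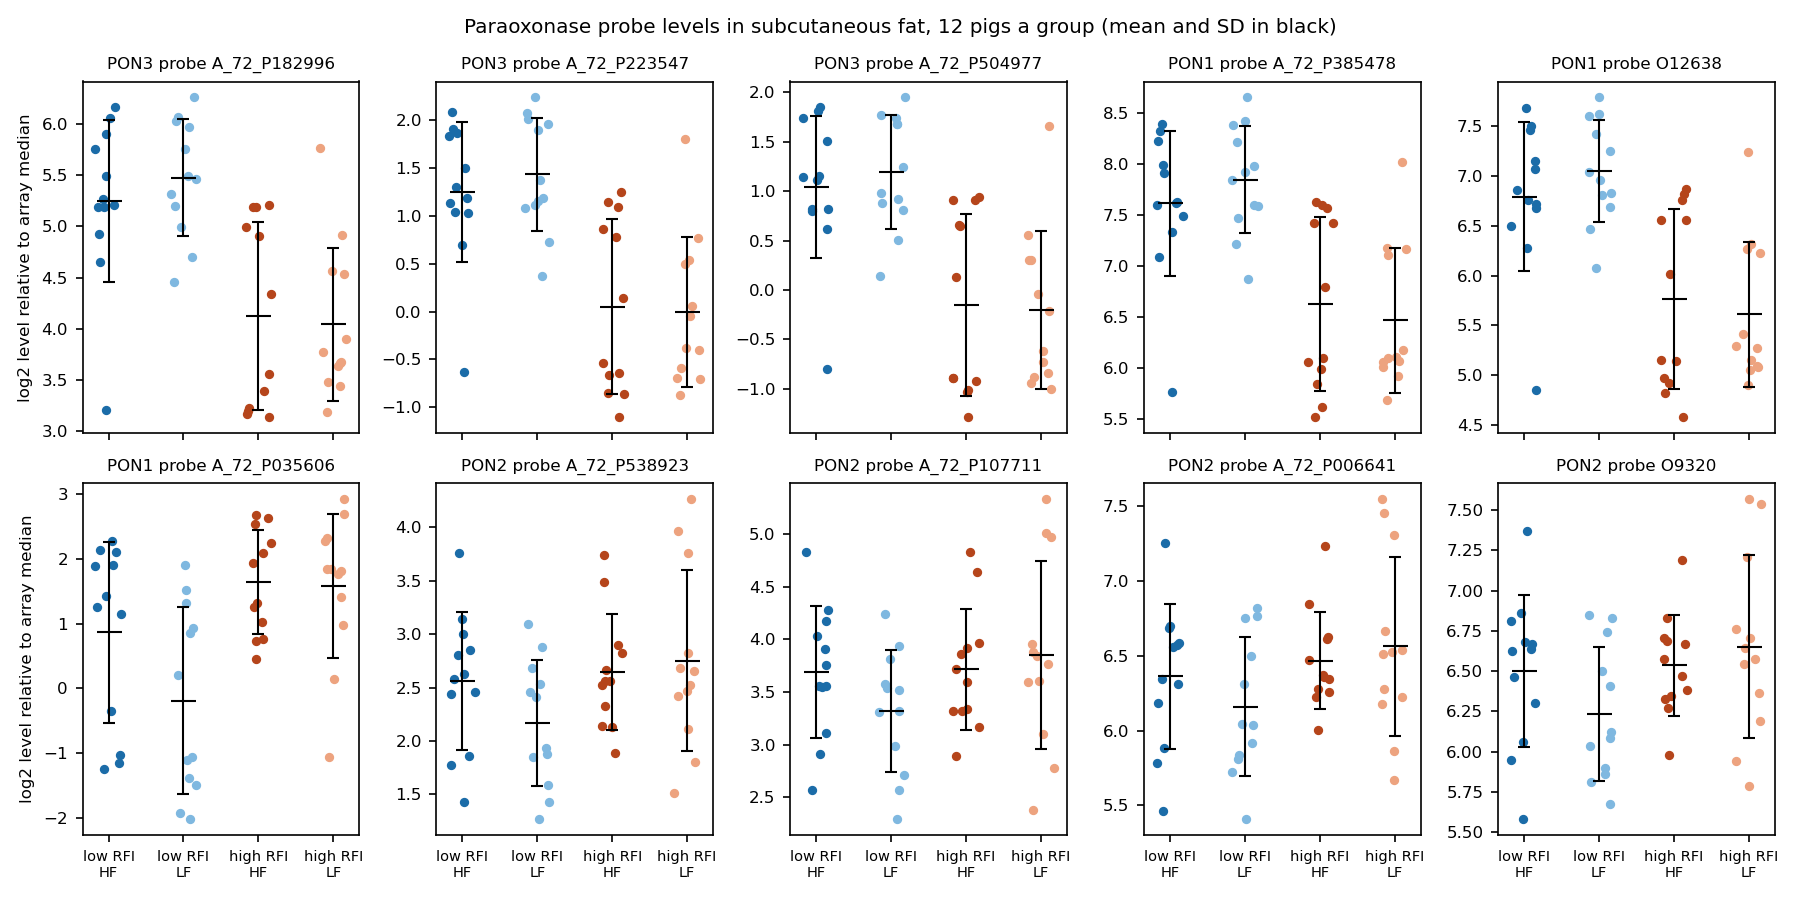
Log2 level of each of the 10 paraoxonase probes (vertical axis, relative to the median kept probe of the array) in the 4 groups of 12 pigs, with 1 point per pig and the group mean and SD in black. Gene names are those of the array. The first 5 panels share 1 pattern, with 23 of 24 low RFI pigs above the high RFI mean, whereas the *PON1* probe A_72_P035606 runs the other way and the *PON2* probes overlap widely.

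*PON3*, the lactonase of HDL, was read by A_72_P182996 as its brightest array-named probe. Its lowest, median and highest log2 levels were 3.21, 5.24 and 6.17 in the HF_RFIneg pigs and 4.46, 5.47 and 6.26 in the LF_RFIneg pigs. In the high RFI line they were 3.14, 3.95 and 5.20 in the HF_RFIpl pigs and 3.19, 3.72 and 5.76 in the LF_RFIpl pigs. The groups of the low RFI line were the higher ones on both diets, and the ranges of all 4 groups overlapped. In order, the group means were 5.47 ± 0.57 in LF_RFIneg, 5.25 ± 0.79 in HF_RFIneg, 4.13 ± 0.92 in HF_RFIpl and 4.05 ± 0.75 in LF_RFIpl (SD, n = 12 each). The neighbours in this order within a line lay closer together than 1 SD of either group.

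The difference between lines in this *PON3* probe was 1.28 on the log2 scale (SE 0.21), with 23 of 24 low RFI pigs above the high RFI mean and 23 of 24 high RFI pigs below the low RFI mean. The exceptions were the same pigs for all 5 probes of this pattern, namely replicate 9 of HF_RFIneg at 3.21 and replicate 3 of LF_RFIpl at 5.76. The difference was 1.12 within the HF diet and 1.43 within the LF diet. It was 1.54 within the first scan date and 1.02 within the other, and it lay between 0.46 and 1.76 within the 6 slides.

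The probe O12638, named after *PON1*, had the pattern of *PON3* and not that of the *PON1* transcript probe. Its lowest, median and highest levels were 4.85, 6.81 and 7.68 in the HF_RFIneg pigs and 6.08, 7.003 and 7.79 in the LF_RFIneg pigs. They were 4.58, 5.59 and 6.87 in the HF_RFIpl pigs and 4.91, 5.28 and 7.24 in the LF_RFIpl pigs. The line difference was 1.23 (SE 0.20), 1.03 within the HF and 1.44 within the LF diet. A_72_P385478, whose accession is that of *PON3*, differed by 1.18 (SE 0.20), with medians of 7.73 in the low and 6.11 in the high RFI line (n = 24 each).

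*PON1*, the HDL paraoxonase itself, was read through its pig transcript only by A_72_P035606. Its lowest, median and highest log2 levels were -1.24, 1.34 and 2.27 in the HF_RFIneg pigs and -2.01, -0.42 and 1.90 in the LF_RFIneg pigs. They were 0.45, 1.62 and 2.68 in the HF_RFIpl pigs and -1.05, 1.83 and 2.92 in the LF_RFIpl pigs. Pigs of both low RFI groups and 2 LF_RFIpl pigs lay below the lowest HF_RFIpl pig, and all 4 groups overlapped at their upper ends. The mean was lower in low RFI pigs by 1.27 on the log2 scale (SE 0.34, a log2 difference of -1.27), with -0.77 within the HF and -1.76 within the LF diet. Within the 6 slides the difference ran from -3.45 to -0.48, and it was -1.78 and -0.76 within the 2 scan dates. In 18 of 24 low RFI pigs the level was below the high RFI mean.

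*PON2*, the intracellular member, had smaller line differences than *PON1* and *PON3*. Its probe O9320 had lowest, median and highest levels of 5.58, 6.63 and 7.37 in the HF_RFIneg, 5.67, 6.10 and 6.85 in the LF_RFIneg, 5.98, 6.52 and 7.19 in the HF_RFIpl and 5.78, 6.61 and 7.57 in the LF_RFIpl pigs. All 4 groups overlapped over most of their range. The line difference of the 4 *PON2* probes lay between -0.23 and -0.33, and for O9320 (-0.23, SE 0.13) it was -0.03 within the HF and -0.42 within the LF diet. Within the LF diet the line difference was -0.40 for A_72_P006641, -0.53 for A_72_P107711 and -0.58 for A_72_P538923. Within the HF diet these probes had -0.11, -0.03 and -0.09. For O9320 the line difference was -0.43 within the first scan date and -0.02 within the other, and from -0.68 to 0.29 within slides, so that its sign was not the same on every slide.

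The diet comparison asked whether the source of dietary energy moved the paraoxonases, and the rule that chose the genes did not use it, although earlier results of these data were known. None of the 10 probes was called for diet, where 13.1% of all 44356 kept probes were (limma, all 48 arrays, the thresholds given above), and none had an unadjusted p under 0.05, which 25.5% of all probes had. For *PON3* the mean of A_72_P182996 was 4.69 ± 1.02 in HF pigs and 4.76 ± 0.98 in LF pigs (SD, n = 24 each), a log2 difference of -0.07 with a 95% interval of -0.50 to 0.35 (limma adjusted p = 0.869). The other probes of the same pattern differed by between -0.07 and -0.03.

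*PON1* had the largest diet difference of the 10 probes. A_72_P035606 was 1.25 ± 1.18 in HF and 0.70 ± 1.55 in LF pigs (SD, n = 24 each), a difference of 0.55 with a 95% interval of -0.12 to 1.23 (limma adjusted p = 0.306). In 19 of 24 HF pigs the level was above the LF mean. The 4 *PON2* probes differed by between 0.05 and 0.14 on the log2 scale, and for O9320 the 95% interval was -0.18 to 0.33. No change was detectable with the spread of these pigs, which for *PON1* still allows more than a doubling.

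**Figure D2:**
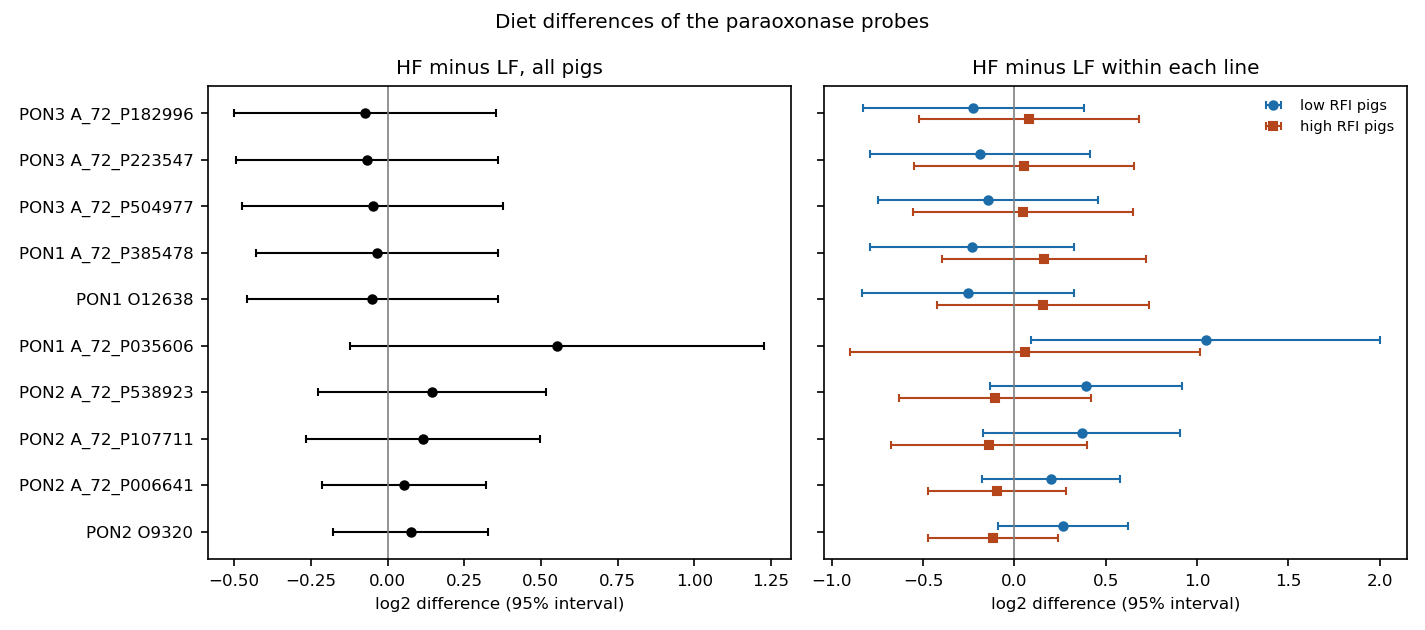
Log2 difference between HF and LF pigs (horizontal axis, points) with its 95% interval (bars) for the 10 paraoxonase probes, over all 48 pigs on the left and within each line on the right. All intervals on the left include 0, and on the right only that of the *PON1* probe A_72_P035606 in low RFI pigs, from 0.09 to 2.004, does not.

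Within the low RFI line none of the 10 probes was called for diet (3.04% of all probes were), and within the high RFI line none either (1.66% of all probes). *PON1* came closest: in low RFI pigs A_72_P035606 was higher under the HF diet by 1.05 (SE 0.48), with a raw p of 0.0322 and a limma adjusted p = 0.272 that missed the threshold. In high RFI pigs the same probe differed by 0.06 (SE 0.48, limma adjusted p = 0.971). The test of the difference between these diet effects did not separate them, with an interaction of 0.99 (SE 0.67, 95% interval -0.36 to 2.34).

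For *PON3* the interaction was -0.30 (SE 0.42) in A_72_P182996, and for *PON2* it was 0.38 (SE 0.25) in O9320. None of the 10 probes was called for the interaction, and 0% of all kept probes were (limma), with 1.04% at an unadjusted p under 0.05. The interval of the interaction in A_72_P182996, from -1.16 to 0.55, leaves room for line differences that depend on diet.

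A widest gap in the levels of the pigs can be found for every probe, so its presence alone shows no separate sets. The widest gap with at least 6 pigs on each side, the rule for every gap named here, in A_72_P182996 lay between 3.90 and 4.34, with 15 pigs below and 33 above it. Those below were 8 LF_RFIpl, 6 HF_RFIpl and 1 HF_RFIneg pigs and no LF_RFIneg pig. The widest gaps of A_72_P385478 and of O12638 set apart the same 15 pigs, and those of the other *PON3* probes set apart 13 of them. Over the probes of the *PON3* pattern the gap was 0.34 to 0.61 wide, on ranges of 3.12 to 3.34. For the *PON2* probes it was 0.08 to 0.36 wide, on ranges of 1.98 to 3.04. Whether the pigs form separate sets was not tested.

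For *PON1* the widest gap set apart other pigs. In A_72_P035606 it lay between -1.02 and -0.35 and was 0.67 wide, on a range of 4.93. It left 10 pigs below, of which 6 were LF_RFIneg, 3 HF_RFIneg and 1 LF_RFIpl pigs. All 10 were among the 11 pigs with the highest levels of the *PON3* probe A_72_P182996, at 5.49 or more. The high RFI pig among them was replicate 3 of LF_RFIpl, the same animal that was exceptional for *PON3*. At the other end, the 15 pigs below the *PON3* gap had *PON1* levels from 0.45 to 2.92. These sets come from the measured levels and are no groups of the study, and no means were compared between them.

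**Figure D3:**
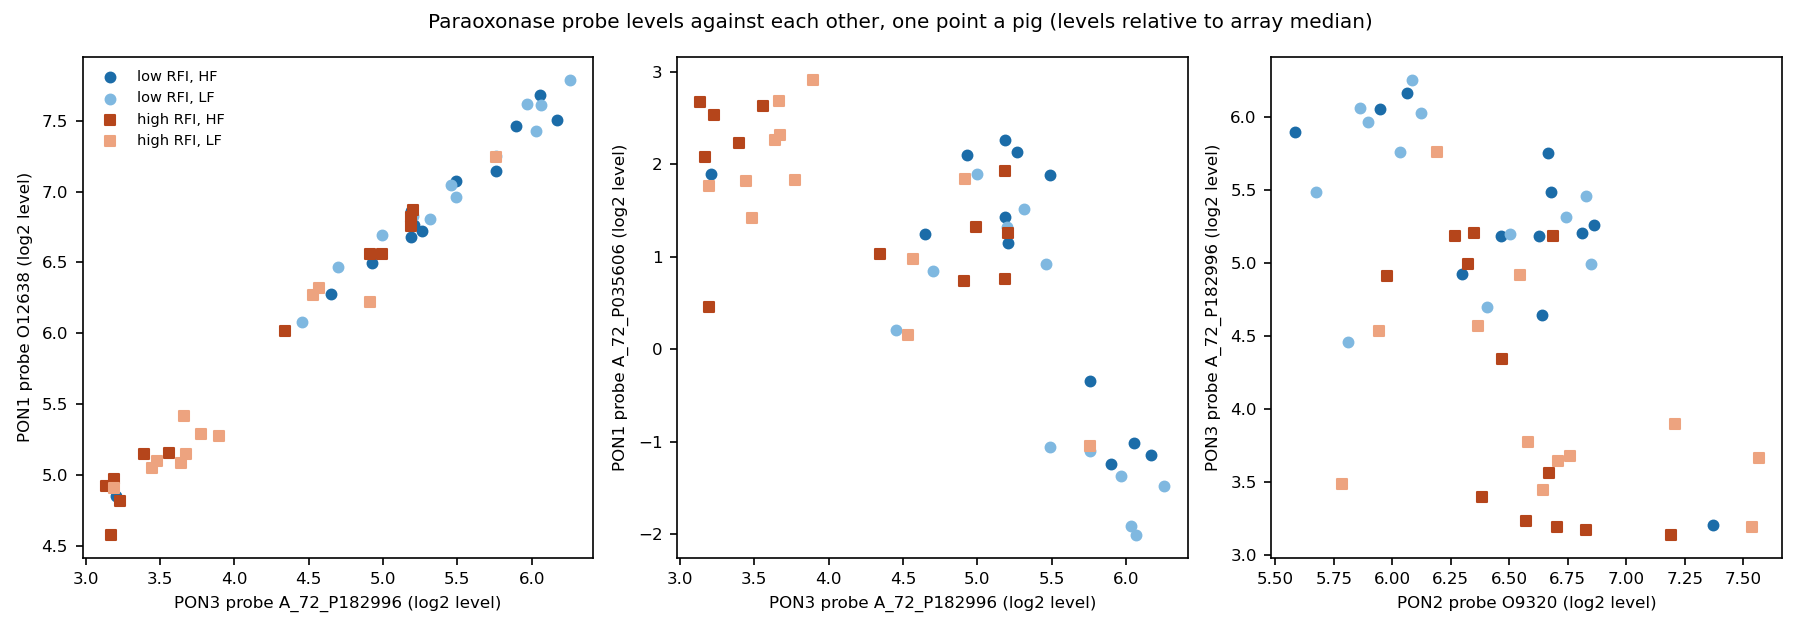
Log2 levels of pairs of paraoxonase probes with 1 point per pig (circles low RFI, squares high RFI, dark HF, light LF). The left panel sets the *PON3* probe A_72_P182996 against O12638, which follow 1 line with an empty stretch between 3.90 and 4.34, the middle panel sets it against the *PON1* probe A_72_P035606, where the 10 lowest pigs lie at *PON3* levels of 5.49 or more, and the right panel sets it against the *PON2* probe O9320.

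Because of these gaps no correlation between paraoxonase probes was pooled over all pigs. It was computed within 3 sets, namely the 15 pigs below the *PON3* gap, the 10 below the *PON1* gap and the 23 others, on deviations from the group means and with permutation p-values adjusted over all these tests. The sets were cut on the levels of A_72_P182996 and A_72_P035606, which are among the probes correlated, and most pigs below the *PON3* gap were high RFI and most below the *PON1* gap low RFI, while the 23 others held both lines, so the size and sign of r in a set depend in part on the split and r is not compared between sets. Probes of the *PON3* pattern moved together from pig to pig. Among the 23 pigs Pearson's r of their 10 pairs lay between 0.91 and 0.99 and Spearman's rho between 0.82 and 0.95, and all 10 pairs passed (permutation test, largest adjusted p = 0.000104). Without the 2 pigs farthest from the median, r among the rest of these pigs lay between 0.89 and 0.98, and within each scan date it was 0.92 or more. Among the 10 pigs r lay between 0.67 and 0.96 and 8 pairs passed, and among the 15 pigs it lay between 0.25 and 0.92 and 5 passed, with lower ends of 0.23 and 0.20 without the 2 farthest pigs. The *PON2* probes also moved together, with all 6 pairs passing in each set and r between 0.69 and 0.98 over the sets, although 1 of these pairs shares bases.

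*PON1* was set against the probes of the *PON3* pattern in the same way. In the 23 pigs r of A_72_P035606 with the 5 probes of the *PON3* pattern lay between -0.0024 and 0.07, and none of the 5 pairs passed. In the 10 pigs below the *PON1* gap it lay between -0.61 and -0.39 with none passing, and in the 15 pigs below the *PON3* gap between 0.03 and 0.74 with 2 passing (permutation test, smallest adjusted p = 0.0053). The values in the 23 pigs depended on few animals and on the scan date: without the 2 pigs farthest from the median r was 0.35 to 0.47, and it was -0.88 to -0.74 within the first and 0.47 to 0.52 within the other scan date. With the 4 *PON2* probes r of A_72_P035606 lay between 0.40 and 0.49 among the 23 pigs with none passing, between 0.38 and 0.60 among the 15 with 1 passing (A_72_P107711, permutation test, adjusted p = 0.0359), and between -0.26 and 0.18 among the 10 with none passing. For the pair that passed Spearman's rho was 0.58 (permutation test, adjusted p = 0.0899), and r was 0.39 without the 2 farthest pigs and 0.56 and 0.26 within the scan dates. *PON2* and the probes of the *PON3* pattern passed in 5 of 20 pairs among the 23 pigs, in 2 of 20 among the 10 and in 0 of 20 among the 15. The *PON2* probes differed in this: the 5 pairs in the 23 pigs were all of A_72_P006641, and the 2 in the 10 pigs were both of O9320, which shares 57 bases with it and passed with none in the 23 (permutation test, smallest adjusted p = 0.0715).

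The genes beside the paraoxonases were compared next, 10 on either side in the gene order of assembly Sscrofa11.1, in which *PON1*, *PON3* and *PON2* follow each other. Of these 20 neighbours 13 were measured: *CALCR*, *TFPI2*, *GNG11*, *COL1A2*, *CASD1*, *SGCE*, *PEG10* and *PPP1R9A* on the *PON1* side, and *PDK4*, *DYNC1I1*, *SLC25A13*, *DLX6* and *ASNS* on the *PON2* side. None was called for line in either direction, where 1.12% of 11050 genes were (limma), and the median line difference of the 13 was -0.05 against 0.02 over all genes. The lowest values, all lower in low RFI pigs, belonged to 3 consecutive genes: *PEG10*, an imprinted gene derived from a retrotransposon (-0.47, SE 0.15, limma adjusted p = 0.133 for its brightest probe, with -0.56, -0.52 and -0.0078 for its other probes A_72_P223757, A_72_P534124 and O7562), *CASD1*, a sialic acid acetyltransferase (-0.36, SE 0.11, adjusted p = 0.130), and *SGCE*, an imprinted sarcoglycan (-0.22, SE 0.07, adjusted p = 0.131). *SGCE* passed the thresholds in 7 of the alternative settings and *CASD1* in 3. *PPP1R9A*, the measured gene nearest to *PON1*, differed by 0.02 (SE 0.17), and *PDK4* and *DYNC1I1* on the other side by 0.40 (SE 0.23) and 0.14 (SE 0.14). Over the 11 kept probes of *PDK4* the line difference ran from 0.32 to 0.77 (A_72_P584171, limma adjusted p = 0.116), with no probe called.

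For diet 2 of the 13 neighbours were called, both higher under the HF diet, where 12.6% of all genes were called in either direction. *PDK4*, a kinase that shuts off pyruvate dehydrogenase, was higher by 0.63 (SE 0.23, limma adjusted p = 0.0690), and *COL1A2*, a chain of collagen type I, by 0.36 (SE 0.13, limma adjusted p = 0.0643). The median diet difference of the 13 was 0.05 against -0.04 over all genes. The call of *PDK4* was lost in 9 of the alternatives and that of *COL1A2* in 2. Over the 11 kept probes of *PDK4* the diet difference ran from 0.46 to 0.69, and not every probe was called.

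The genes whose levels were most like each paraoxonase probe from pig to pig were ranked by Pearson's r among 11047 genes. It was computed over the 48 pigs after the group means were removed. The ranking is a description only, since all genes come from the same arrays and r over all pigs can differ from r within the sets above. Neighbours stood at the ends of several of these rankings. For the *PON1* probe A_72_P035606 the highest r was that of *CASD1* (0.62), followed by *MAGEF1*, *UFSP2*, *C8ORF41* and *CD58*, and the lowest were *POLR2J* (-0.58), *TTLL4* and *RANGAP1*. For the *PON3* probe A_72_P182996 the lowest were *PPP1R9A* (-0.53), *CASD1* (-0.52) and *RUBCNL*, and the highest *RHBDF2* (0.58), *PPFIA1*, *GSK3B*, *XPO7* and *KCTD20*.

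The probes named *PON1* that had the *PON3* pattern shared several of these genes with *PON3*. *RHBDF2* was the highest for O12638 (0.59) and for A_72_P385478 (0.60). *CASD1* was the lowest for O12638 (-0.57) and next to the lowest for A_72_P385478 (-0.57), after *ZBTB1* (-0.58). The remaining genes named by the rule were *C7orf50*, *GSK3B*, *PPFIA1*, *GAS2L1*, *ZBTB1* and *MED30* for O12638, and *C7orf50*, *GSK3B*, *RAD23B*, *XPO7* and *RUBCNL* for A_72_P385478. *CASD1* had a similar r with A_72_P182996 in both scan dates (-0.56 and -0.59), and with A_72_P035606 as well (0.60 and 0.67). Within the sets of pigs, its r with A_72_P182996 was 0.56 among the 15 pigs, -0.22 among the 23 and -0.51 among the 10.

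For *PON2* the ranking was added after the other results were seen. The highest r with O9320 was that of *DYNC1I1* (0.75), a dynein chain gene on the *PON2* side, then *PEG10* (0.68), *ASH2L*, *PCCA* and *TSPAN13*, with *ASNS*, the asparagine synthetase of the same neighbourhood, in place 6 (0.63). The lowest were *ENTPD4* (-0.64), *SLC30A7* and *EIF2AK3*. Within the 3 sets of pigs, r of *DYNC1I1* with O9320 was 0.91 among the 15 pigs, 0.66 among the 23 and 0.87 among the 10. That of *CASD1* with the *PON1* probe was 0.58, 0.36 and 0.67, and that of *PPP1R9A* with the *PON3* probe A_72_P182996 was -0.23, -0.11 and -0.29. With A_72_P385478 r of *PPP1R9A* was 0.37, -0.06 and 0.06, and with O12638 0.15, -0.05 and 0.05, so it kept no sign over these probes. Over the 48 pigs it stood in place 22 and 11 from the lowest for these probes. In the same order r with O9320 was 0.71, 0.39 and 0.69 for *PEG10* and 0.78, 0.23 and 0.67 for *ASNS*, so both were lower among the 23 pigs than over the 48.

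**Figure D4:**
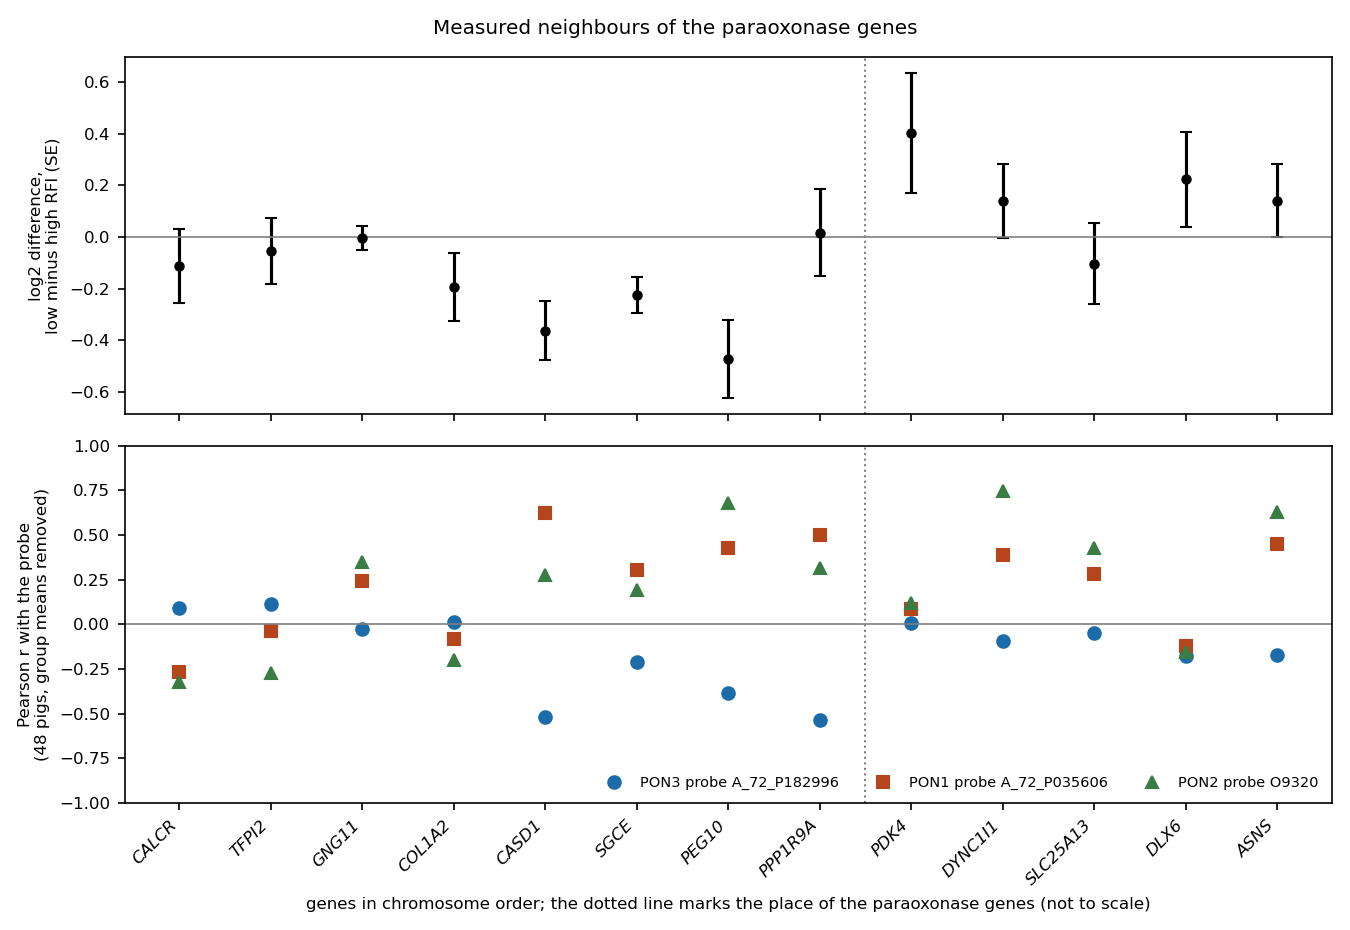
The 13 measured neighbours of the paraoxonase genes in chromosome order (horizontal axis, not to scale). The upper panel gives the log2 difference between low and high RFI pigs with its SE, lowest for *PEG10* at -0.47, and the lower panel gives Pearson's r with a *PON3*, a *PON1* and a *PON2* probe over 48 pigs with group means removed, highest for *DYNC1I1* with *PON2* at 0.75. Some pooled r had another sign within the sets of 15, 23 and 10 pigs. *PEG10* with A_72_P182996 had -0.38 pooled and -0.0060, 0.34 and 0.89 in the sets. *PPP1R9A* with A_72_P035606 had 0.50 pooled and -0.48, 0.33 and 0.11 in the sets. Others, such as *DYNC1I1* with O9320, kept their sign.

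Markers of other cells were set beside the paraoxonases. Of the macrophage markers 9 of 11 were measured, of endothelial and fibroblast markers 6 of 6 each, of skeletal muscle markers 9 of 10, of blood markers 3 of 5 and of liver markers 5 of 11. Neither these lists nor the adipocyte list held a gene called for line, where 1.12% of all genes were. For diet the adipocyte markers *LEP* (-0.67) and *CIDEA* (-0.36) and the liver marker *TF* (-0.80) were called lower and the fibroblast marker *PDGFRA* (0.31) higher under the HF diet. These were 2 of 9 adipocyte, 1 of 5 liver and 1 of 6 fibroblast markers and none of the other lists, where 12.6% of all genes were called. Nothing about cell types is read from these counts. Group means of the macrophage list lay between 1.59 and 1.78 and those of the adipocyte list between 6.96 and 7.19. The mean of the liver list was between -1.37 and -0.44 in the groups, and its r with the 5 probes of the *PON3* pattern over 48 pigs was -0.33 to -0.17. That of the adipocyte list with the same probes was 0.32 to 0.36, and the median line difference of its genes was 0.12. Over the 4 *PON2* probes r was 0.44 to 0.58 with the endothelial list. It was negative with the fibroblast list, at -0.39 to -0.31, and with the skeletal muscle list, at -0.40 to -0.26. The share of probes above background on the array had an r of -0.32 to -0.23 with the *PON3* pattern and 0.16 with the *PON1* probe. The part of these measures in the paraoxonase levels was not tested.

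Genes of HDL, lipoprotein and lipid peroxide handling formed a list of 47, of which 36 were measured. None was called for line, where 1.12% of all genes were, and 3 were called for diet, where 12.6% were, all lower under the HF diet. Among them were *LCAT*, which esterifies cholesterol on HDL (-0.25, SE 0.07, limma adjusted p = 0.0198), and *APOB*, the protein of low-density lipoprotein (-0.22, SE 0.07, adjusted p = 0.0244), whose call was lost in 1 alternative. The median line difference of the list was 0.06 and its median diet difference -0.08. Line differences were -0.08 (SE 0.07) for *APOA1* and 0.07 (SE 0.05) for *APOE*, apolipoproteins carried on HDL, and 0.14 (SE 0.07) for *LCAT*. They were -0.02 (SE 0.07) for *SCARB1*, a cell-surface HDL receptor, and 0.03 (SE 0.13) for *ABCA1*, a cholesterol exporter of the cell membrane.

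Of 33 candidate regulators, described either for paraoxonase promoters or for liver-type lipid genes, 29 were measured. A place in this list does not mean a known action on paraoxonase genes. For line 1 was called against 1.12% of all genes, *STAT5A*, a factor of growth hormone and cytokine signalling, with 4.07 ± 0.23 (SD, n = 24) in low RFI and 3.84 ± 0.21 (SD, n = 24) in high RFI pigs, a difference of 0.23 (limma adjusted p = 0.0625) that was lost in 5 of the alternatives. For diet 4 were called against 12.6% of all genes. *PPARA*, the fatty acid receptor, was higher under the HF diet by 0.96 (SE 0.22, limma adjusted p = 0.0034), a value of its brightest probe A_72_P775972 alone. Its other probes differed by 0.21 (O221) and by -0.32 (A_72_P441798), and the mean of its probes by 0.28, which did not pass. Lower under the HF diet were *PPARD* (-0.60, adjusted p = 0.00235), *RXRA*, their partner (-0.21, adjusted p = 0.0086), and *CEBPA*, an adipocyte factor (-0.14, adjusted p = 0.0588), whose call was lost in 4 alternatives.

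The other candidate regulators named here had no call for line. *HNF4A* differed by 0.19 (SE 0.11), *AHR* by 0.07 (SE 0.08) and *SREBF2* by 0.06 (SE 0.06). The median line difference over the 29 was 0.06 and the median diet difference -0.05, against 0.02 and -0.04 over all genes.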

How the data were processed

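The authors labelled each RNA with Cy3, hybridized it to a custom pig array and quantified it with Feature Extraction 10.7.3.1. Intensity in the deposited files is linear. A log2 table, which the authors made in R 2.10.0, was deposited as well. All 48 of its columns equalled log2 of the median signal minus the array median within 1e-08.

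Here the processed signal was used. Control spots and feature outliers (227 spots) were left out, probes well above background on at least 9 of 12 arrays of a group were kept, and log2 values were centred on the array median. A gene was represented by its brightest kept probe. limma 3.58.1 in R 4.3.3 fitted diet, line and interaction over all kept probes with a trend, two-sided, with the study's thresholds, and the script was tested on simulated data. Correlations used 100000 permutations within groups, called at an adjusted p under 0.05. This number of permutations allows a p of 1e-05 at the smallest. In the set of 10 pigs, with 6, 3 and 1 pigs of a group, fewer arrangements exist and the smallest p is larger. A pig alone in its group within a set deviates by 0 from its group mean and adds nothing to Pearson's r. Python 3.11.15 was used. The number of arrays limits precision.

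The members, lists, alternatives and tests were chosen with earlier results of these data known. Named genes were all paraoxonase probes, all measured neighbours, *APOA1*, *APOE*, *LCAT*, *ABCA1*, *SCARB1*, *AHR*, *PPARA*, *HNF4A*, *SREBF2*, any called gene of those lists, and the 5 highest and 3 lowest genes by likeness. Values of 2 genes of these lists are not reported here.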

Additional observations from a re-analysis of the deposited data

How the results depend on the processing

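The diet and interaction counts for the paraoxonase probes stayed at 0 of 10 in all 14 alternatives, and the number of probes higher in low RFI pigs stayed at 5. The number of correlated pairs was 51 and moved between 48 and 55. No line or interaction value of a paraoxonase probe changed sign. Small diet differences did: with array position as a block they became 0.027 for A_72_P385478, 0.00497 for A_72_P504977, 0.015 for O12638 and, in high RFI pigs, -0.012 for A_72_P035606, with scaling to the 75th percentile 0.0066 for A_72_P385478, and with array weights -0.0038 for A_72_P006641. Among other genes the line difference turned for *GNG11* (0.0064 with array position, 0.015 with array weights), *PPP1R9A* (-0.059 with array position, -0.011 without background outliers, -0.0076 with quantile normalization), *SCARB1* (0.0091 with array position), and *PPARA* (0.029) and *SREBF2* (-0.0056) as means of probes.

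The replicate number as a block left 1 neighbour called for diet and 2 for line. The main model did not take the numbers as a pairing. Of 72 pairs of pigs with the same number 48 had an r over 0.1. Their median r of 0.158 was above the 0.0858 of other numbers on the same slide and the -0.0344 of other slides. What pigs of the same number share was not tested. With the replicate number as a block *SGCE* (limma adjusted p = 0.0345) and *CASD1* (adjusted p = 0.0598) were called, so that the absence of line calls among the neighbours holds for the model without it. Neighbours called for line numbered 2 with slide or array weights and 1 with the 75th percentile, quantile normalization, scan date or the mean of probes. Neighbours called for diet numbered 1 with slide, array weights, normexp, median signal, background outliers left out or the authors' table, and 0 without the filter or with the methods' analysis of variance. With array weights 5 genes of the HDL list were called for diet. The candidate regulator called for line was lost, leaving 0, with array position, the mean of probes, median signal, normexp or no filter. The cause of these shifts was not tested.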

Other observations

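A further probe that the array describes as similar to bovine *PON2*, A_72_P306623, carried no member name and was left out of the results. It was well above background on 48 arrays, with a log2 difference of -0.49 between low and high RFI pigs (SE 0.17, limma adjusted p = 0.192) and of 0.24 between HF and LF pigs (limma adjusted p = 0.410), neither of which passed the thresholds.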
